A study of Homo sapiens with 6 samples.

Results

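The genes described here are 39 genes of antigen presentation and of the surface ligands through which cells engage T cells, natural killer cells and macrophages, out of 26255 gene symbols in the table. They were taken by name from a fixed list, which was chosen with earlier results of these data known. RNA was measured in MDA-MB-231 cells, a human triple-negative breast cancer line, infected with lentivirus carrying a non-targeting control hairpin (shNT, 3 libraries) or a hairpin against GPR81 (shGPR81, 3 libraries). Both lines were selected with puromycin. The methods speak of resistant clones without saying how many make up a line, and which of 2 hairpins the sequenced cells carried is not given in the sources used here. GPR81, encoded by HCAR1, is a G protein-coupled receptor for lactate, and lactate signalling through it has been linked to PD-L1 (CD274), which is the reason for looking at these genes.

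In cells, the proteasome cuts proteins into peptides, the TAP transporter brings the peptides into the endoplasmic reticulum, and chaperones load them onto MHC class I molecules, pairs of an HLA heavy chain and beta-2-microglobulin that are read by CD8 T cells. MHC class II molecules present peptides from the endosome to CD4 T cells, are typical of professional antigen-presenting cells, and are made by many other cells after interferon-gamma through the transactivator CIITA, as class I genes are through NLRC5. Checkpoint ligands such as PD-L1 and CD47 restrain T cells or phagocytes, and the stress ligands MICA, MICB and ULBP2 are bound by NKG2D on natural killer cells.

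The proximal promoters of 5 genes are shown for reference: HLA-B, its neighbour HLA-C, HLA-DRB1 as the class II example, TAP1, and CD274. No expression result below depends on them, and whether they bear on any difference was not tested. Sequences are those of RefSeq for GRCh38.p14, from 250 bases before to 50 bases after the start of the gene, written 5′ to 3′ on the strand of the gene. Capitals mark matches, on either strand, to GGGATTCCC (an NF-kB site of class I promoters, named kB here), AANNGAAA (a loose interferon response element, ISRE-like), TGATGATG (part of the X box of class II genes) and GATTGG (the Y box, an inverted CCAAT). They lie at chr6:31357130-31357429 (minus strand) for HLA-B, chr6:31272043-31272342 (minus) for HLA-C, chr6:32589799-32590098 (minus) for HLA-DRB1, chr6:32853655-32853954 (minus) for TAP1 and chr9:5450292-5450591 (plus) for CD274.
HLA-B: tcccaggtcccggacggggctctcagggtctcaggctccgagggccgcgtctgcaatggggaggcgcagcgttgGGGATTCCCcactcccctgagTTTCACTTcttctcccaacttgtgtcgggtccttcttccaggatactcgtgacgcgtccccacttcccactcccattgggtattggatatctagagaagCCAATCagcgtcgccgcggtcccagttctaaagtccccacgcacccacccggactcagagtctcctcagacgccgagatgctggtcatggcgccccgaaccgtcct
HLA-C: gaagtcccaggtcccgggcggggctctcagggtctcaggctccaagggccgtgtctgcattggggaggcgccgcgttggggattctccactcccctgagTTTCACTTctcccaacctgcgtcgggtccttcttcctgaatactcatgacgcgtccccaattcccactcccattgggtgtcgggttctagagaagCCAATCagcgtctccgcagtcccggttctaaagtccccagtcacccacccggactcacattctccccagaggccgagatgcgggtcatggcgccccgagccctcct
HLA-DRB1: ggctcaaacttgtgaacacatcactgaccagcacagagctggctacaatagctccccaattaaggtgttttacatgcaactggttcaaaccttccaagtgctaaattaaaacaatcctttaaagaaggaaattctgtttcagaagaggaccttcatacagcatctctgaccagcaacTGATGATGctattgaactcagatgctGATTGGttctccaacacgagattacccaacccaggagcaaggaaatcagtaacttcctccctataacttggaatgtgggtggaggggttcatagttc
TAP1: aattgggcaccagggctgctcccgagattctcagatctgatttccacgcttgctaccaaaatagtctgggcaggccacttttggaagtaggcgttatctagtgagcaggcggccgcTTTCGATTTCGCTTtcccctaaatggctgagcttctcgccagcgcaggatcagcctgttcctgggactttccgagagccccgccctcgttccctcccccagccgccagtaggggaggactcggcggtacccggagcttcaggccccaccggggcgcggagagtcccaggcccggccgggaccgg
CD274: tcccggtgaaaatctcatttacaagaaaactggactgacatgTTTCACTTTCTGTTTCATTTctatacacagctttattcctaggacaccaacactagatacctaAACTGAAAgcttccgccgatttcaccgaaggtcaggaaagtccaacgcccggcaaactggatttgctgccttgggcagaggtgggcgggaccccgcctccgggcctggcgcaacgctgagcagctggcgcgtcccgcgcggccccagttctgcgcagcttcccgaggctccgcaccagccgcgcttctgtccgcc

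Over the 296 aligned bases, 269 were identical between HLA-B and HLA-C (90.88%). The kB match of HLA-B begins 176 bases before the start, at position -176, and the HLA-C promoter has no exact match to it. Within the 30 bases around it the genes differ by 1 substitution, C11T, counted from 1 at the 5′ end of the window with the base of HLA-B first and in capitals.
HLA-B window: ttggggattcCccactcccctgagtttcac
HLA-C window: ttggggattcTccactcccctgagtttcac
Both promoters carry an ISRE-like match, at -155 in HLA-B and at -151 in HLA-C, and a Y box at -56. The HLA-DRB1 promoter has the X box at -73 and the Y box at -47, TAP1 has 2 overlapping ISRE-like matches, and CD274 has 4. Of the 33 genes of the list with a promoter in the table, 17 hold an ISRE-like match, against 23.2% of all 27305 promoters. The kB word occurs in 1 (HLA-B) against 0.363% of all promoters, the X box in 3 (HLA-DMA, HLA-DMB and HLA-DRB1) against 0.963%, and the Y box in 13 against 15.7%. CIITA, HLA-DRA, HLA-E, NLRC5, PDCD1LG2 and PDIA3 were not matched. These matches are letters in the reference sequence and were not tested as sites, and the alleles carried by the cells were not analysed here.

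The values are FPKM, fragments per kilobase of transcript scaled to library size, so that they can be compared between genes as well as between libraries. About 12042000 to 12893000 reads per library were estimated from whole-read steps in the FPKM. HCAR1 itself was at 0.968, 1.02 and 1.36 FPKM in shNT and at 0.978, 0.891 and 0.396 FPKM in the libraries whose label is shGPR81, called the shGPR81-labelled libraries below. These groups overlapped, and the log2 fold change of -0.57 (SE 0.31) had an adjusted p of 0.38 in limma and an exact two-sided permutation p of 0.2. Over the alternative settings that kept HCAR1, its log2 fold change ran from -0.78 without shGPR81 replicate 1 to -0.22 without shGPR81 replicate 3. At a pseudocount of 1 it was -0.28. The values stand for 129 reads in shNT and 92 in the shGPR81-labelled libraries, a ratio of 0.677. Its 95% counting interval was 0.513 to 0.892, which does not cover the spread between libraries. The paper reports reduced GPR81 in its hairpin lines by RT-qPCR and western blotting. Of 14 leukocyte markers, 7 were listed at 0 in all 6 libraries, among them CD3D, CD3E, MS4A1 and NKG7, and of 10 luminal markers ESR1, PGR and CDH1 were also listed at 0. The summed level of the luminal list, mostly keratins, was 420 to 537 FPKM in shNT and 440 to 511 FPKM in the shGPR81-labelled libraries. KRT19 in it had means of 78.1 and 112 FPKM (log2 fold change 0.53, adjusted p = 0.0450 in limma), a change of less than 1.5-fold. Of the 7 luminal genes tested, 3 had a log2 fold change below 0 and 4 above. In limma 1 was lower and 1 higher at an unadjusted p under 0.05, against 9.43% and 10.1% of all genes. VIM was the highest of the mesenchymal markers of this line, whose summed level was 4177 to 5021 FPKM in shNT and 5040 to 5630 FPKM in the shGPR81-labelled libraries.

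Of the 39 genes, 35 passed the filter (at least 0.1 FPKM in 3 or more libraries) and were tested. HLA-F and VTCN1 were listed at 0 in every library, and HLA-G and LGALS9 stayed below the filter. HLA-DPB1 passed only through its shNT libraries. HLA-B and HLA-DRA were called lower in the shGPR81-labelled libraries, where a call needs an adjusted p under 0.05 and a change of more than 1.5-fold, and 0 genes were called higher by limma. At an unadjusted p under 0.05, 10 genes of the list were lower and 0 higher, against 9.43% and 10.1% of all genes. Over all 14349 genes tested, 1.59% were called lower and 0.955% higher. By adjusted p alone 3 genes of the list were lower, TAP1 being the third, against 3.07% of all genes. The 3 shGPR81 libraries all lay below the 3 shNT libraries in 15 genes (42.9% of those tested, against 12.7% of all genes), and all lay above them in 0 (against 12.9%). HLA-DPB1 is among the 15 and among the 10, and as it passed the filter only where it was high, the counts without it are 14 and 9 of 34. The median log2 fold change of the 35 genes was -0.12, with 27 below 0 and 8 above, and that of all tested genes was 0.01, with 6900 below and 7449 above. Relative to the shNT mean, the median over the genes of the list was -0.12, -0.10 and -0.13 in the 3 shGPR81-labelled libraries and -0.10, 0.04 and 0.05 in the shNT libraries, so that 1 shNT library, replicate 1, lay as low as a shGPR81-labelled one. A lower level in a bulk library can come from fewer cells that make the RNA or from less RNA in each cell, and these cannot be told apart.

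**Figure D1:**
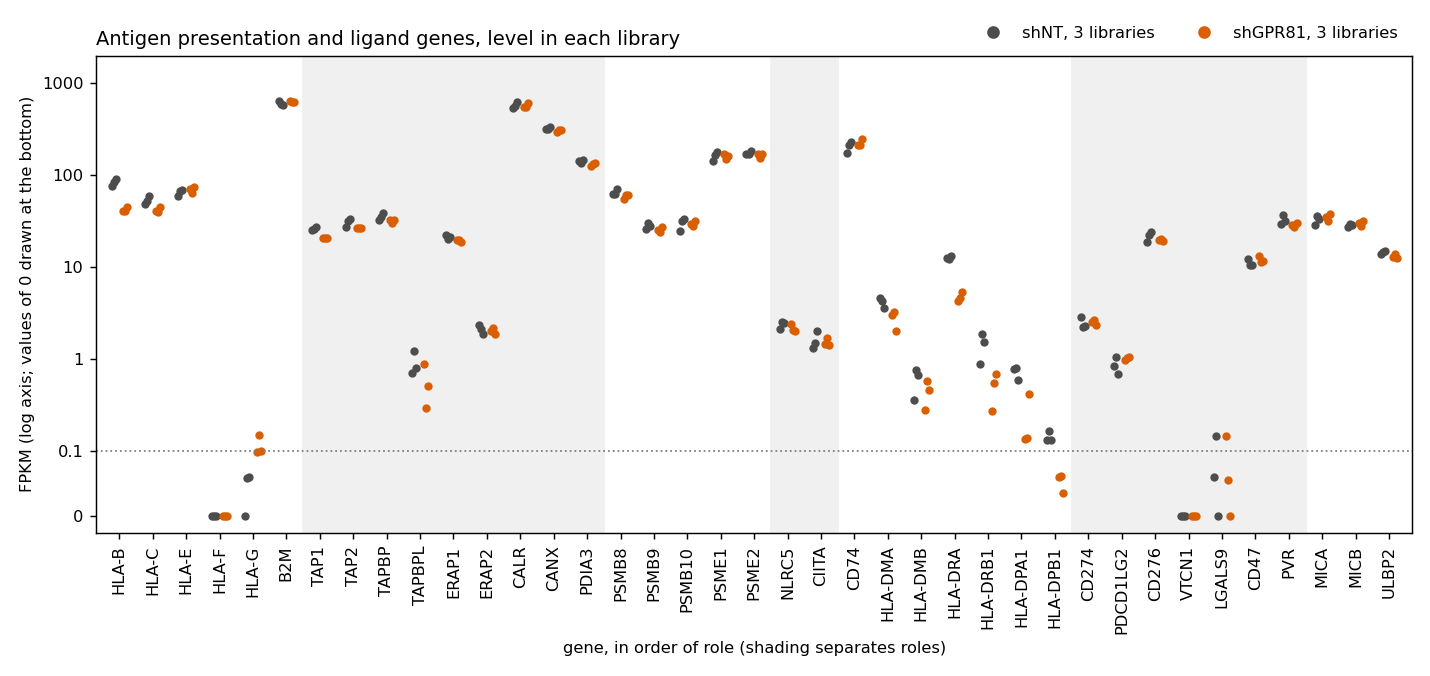
FPKM of the 39 genes in each of the 6 libraries on a log axis, with values of 0 drawn at the bottom and the filter of 0.1 FPKM as a dotted line. Each point is a library, grey for shNT and orange for shGPR81, and shading separates the roles. B2M and CALR stand at the top, the class II genes other than CD74 stand low, and among the tested genes the colours separate most widely in HLA-B, HLA-DRA, HLA-DRB1, HLA-DPA1 and HLA-DPB1.

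Among the class I molecules, HLA-B fell and the other heavy chains and their partner did not pass the test. HLA-B, a classical heavy chain, stood at 75.6, 85.7 and 91.0 FPKM in shNT and at 40.8, 41.2 and 45.1 FPKM in the shGPR81-labelled libraries. The lowest shNT library was well above the highest shGPR81 library. The mean went from 84.1 ± 7.83 to 42.3 ± 2.39 FPKM (SD, n = 3), a log2 fold change of -0.99 in limma with an SE of 0.0787 and an adjusted p of 0.00106, and it was called under every one of the 13 alternative settings. HLA-C, the classical heavy chain encoded next to it, was at 49.2, 52.9 and 58.9 FPKM in shNT against 40.8, 40.2 and 45.2 FPKM. Its groups did not overlap either, but the log2 fold change was -0.35 (SE 0.080) with an adjusted p of 0.0547, just outside the threshold. HLA-E, the non-classical heavy chain read by NKG2A on natural killer cells, was at 59.4, 67.4 and 69.3 FPKM in shNT and at 70.2, 64.2 and 75.6 FPKM in the shGPR81-labelled libraries (log2 fold change 0.10, 95% interval -0.09 to 0.29, adjusted p = 0.595 in limma). B2M, the light chain shared by all class I molecules, was far more abundant, at 643, 601 and 587 FPKM against 645, 626 and 619 FPKM. Its groups overlapped, with a log2 fold change of 0.05 (95% interval -0.08 to 0.17, adjusted p = 0.714 in limma). HLA-G, which marks placental trophoblast, rested on 2 reads in all in shNT and 7 in the shGPR81-labelled libraries, a ratio of 3.32 with a 95% counting interval of 0.633 to 32.8.

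HLA-B and HLA-C did not move by the same amount. Within each library, HLA-B was 1.54, 1.62 and 1.55 times HLA-C in shNT and 1.001, 1.02 and 0.997 times HLA-C in the shGPR81-labelled libraries. The ratio therefore separated the groups, with a difference of -0.64 on the log2 scale and an exact two-sided permutation p of 0.1, the smallest that 3 against 3 libraries allow. The difference of the fold changes stayed between -0.65 and -0.61 over the alternative settings. HLA-B lies on chromosome 6 of GRCh37 from 31321649 to 31334844 and HLA-C from 31236526 to 31239907, both on the minus strand. Of the 75-base stretches in annotated transcripts, 25.96% of those of HLA-B also occur in another gene, mostly the overlapping pseudogene DHFRP2, and 1.33% of those of HLA-C. HLA alleles differ from the reference, and how many reads of each gene were lost or placed elsewhere for that reason was not tested.

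**Figure D2:**
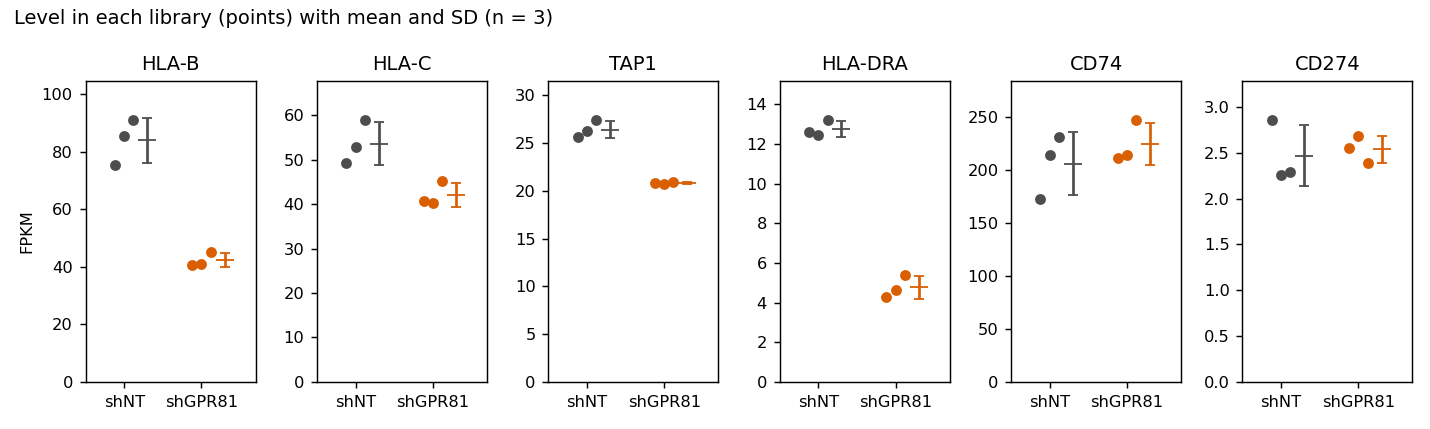
FPKM in each library (points) with the mean and SD beside them (n = 3) for 6 genes, each panel on a linear axis from 0. The groups stand apart for HLA-B, HLA-C, TAP1 and HLA-DRA and overlap for CD74 and CD274.

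Of the 9 genes that feed and load class I molecules, TAP1 passed the adjusted p without reaching the fold and limma called 0. At an unadjusted p under 0.05, 3 were lower and 0 higher, against 9.43% and 10.1% of all genes. All 9 were below 0 on the log2 scale (median -0.13). In 6 of them, TAP1, TAP2, TAPBP, ERAP1, CANX and PDIA3, the shGPR81 libraries all lay below the shNT libraries, against 12.7% of all genes. Of these, ERAP1, CANX and PDIA3 had an unadjusted p of 0.0714, 0.125 and 0.0731 in limma. TAP1, a chain of the peptide transporter, was at 25.6, 26.2 and 27.4 FPKM in shNT and at 20.9, 20.7 and 20.9 FPKM in the shGPR81-labelled libraries. It fell by 0.34 on the log2 scale (SE 0.0516, adjusted p = 0.0111 in limma). Leaving out shNT replicate 2 raised its adjusted p to 0.0606, and leaving out shGPR81 replicate 1, 2 or 3 raised it to 0.0635, 0.0676 or 0.0518. TAP2, the other chain, had group means of 30.9 and 26.7 FPKM (log2 fold change -0.21, adjusted p = 0.195 in limma), and tapasin (TAPBP), which holds class I molecules at the transporter, 35.75 and 31.8 FPKM. The peptide-trimming protease ERAP1 had means of 21.5 and 19.65 FPKM and ERAP2 of 2.12 and 2.03 FPKM. The chaperones CALR, CANX and PDIA3 were abundant, with means of 579 and 569.8, 323 and 306, and 143 and 133 FPKM in shNT and shGPR81 libraries. TAPBPL, a tapasin-related peptide editor, stood on 62 reads in shNT and 40 in the shGPR81-labelled libraries, with overlapping groups.

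The immunoproteasome subunits PSMB8, PSMB9 and PSMB10 replace catalytic subunits of the standard proteasome. They and the activator chains PSME1 and PSME2 were all below 0 by small amounts (median -0.09). None passed the test in limma, the smallest adjusted p being 0.337 for PSMB8. An unadjusted p under 0.05 was reached by 0 of them, against 9.43% of all genes lower and 10.1% higher. PSMB8 went from a mean of 65.6 ± 5.40 to 59.1 ± 3.602 FPKM (SD, n = 3). It was the only one of the 5 whose groups did not overlap. Its shGPR81 libraries all lay below the shNT libraries, as did those of 12.7% of all genes. Among 17 genes of the standard proteasome, its activators and its assembly, limma called 0. There, 2 were lower and 1 higher at an unadjusted p under 0.05, again against 9.43% and 10.1% of all genes. PSMA7, which had the smallest p there, had group means of 456 and 332 FPKM (log2 fold change -0.46, adjusted p = 0.00472 in limma) and lies on chromosome 20, where 354 of 390 tested genes had a log2 fold change below 0. No gene of the list lies on that chromosome. PSMB9 overlaps its neighbours TAP1 and PSMB8, which both lie on the opposite strand. The strand setting of the counting is not given in the sources used here.

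The transactivators were measured at low levels and did not pass the test. NLRC5, the class I transactivator, was at 2.15, 2.52 and 2.46 FPKM in shNT and at 2.44, 2.09 and 2.04 FPKM in the shGPR81-labelled libraries (log2 fold change -0.11, 95% interval -0.40 to 0.17, adjusted p = 0.699 in limma). CIITA, the class II transactivator, was at 1.33, 1.51 and 2.02 FPKM against 1.46, 1.72 and 1.44 FPKM (log2 fold change -0.05, 95% interval -0.46 to 0.35, adjusted p = 0.911 in limma). Both sets of groups overlapped. Of 7 factors of the complex that binds the X and Y boxes, limma called 0. An unadjusted p under 0.05 was also reached by 0, against 9.43% of all genes lower and 10.1% higher. RFX5, with the smallest p of the 7, had means of 17.4 and 19.5 FPKM (adjusted p = 0.279 in limma).

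The largest log2 fold changes of the list were those of the class II genes HLA-DPA1, HLA-DRA and HLA-DRB1, of which limma called only HLA-DRA. HLA-DRA, the invariant alpha chain of HLA-DR, was at 12.6, 12.4 and 13.2 FPKM in shNT and at 4.28, 4.65 and 5.42 FPKM in the shGPR81-labelled libraries. The groups were far apart, and the mean fell from 12.7 ± 0.402 to 4.78 ± 0.578 FPKM (SD, n = 3), a log2 fold change of -1.40 in limma with an SE of 0.0967 and an adjusted p of 0.000657. It was called under all 13 alternative settings. The values stand for 572 reads in shNT and 226 in the shGPR81-labelled libraries, a depth-corrected ratio of 0.375 (95% counting interval 0.320 to 0.439), and 0% of its 75-base stretches occur in another gene. HLA-DRB1, its beta chain partner, was at 0.886, 1.87 and 1.55 FPKM against 0.276, 0.558 and 0.698 FPKM. How many of its reads were lost or placed elsewhere because alleles differ from the reference was not tested. Its groups did not overlap, but the log2 fold change of -1.34 had an SE of 0.354 and an adjusted p of 0.082 in limma. It rests on 59 and 22 reads (ratio 0.354, 95% counting interval 0.207 to 0.587). In limma its adjusted p was 0.0344 without shNT replicate 1, and 0.102 to 0.248 with any other library left out.

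HLA-DPA1, the alpha chain of HLA-DP, was at 0.787, 0.816 and 0.590 FPKM in shNT and at 0.138, 0.140 and 0.418 FPKM in the shGPR81-labelled libraries (log2 fold change -1.42, SE 0.342, adjusted p = 0.0631 in limma). Its groups did not overlap, and shGPR81 replicate 3 stood above the other shGPR81 libraries. In limma its adjusted p was 0.0214 without that library, and 0.0977 to 0.207 with any other library left out. HLA-DPB1, the beta chain, was at 0.132, 0.165 and 0.132 FPKM against 0.0528, 0.0534 and 0.0356 FPKM, which stand for 23 and 8 reads (ratio 0.330, 95% counting interval 0.128 to 0.765). Its fitted log2 fold change of -0.72 (adjusted p = 0.223 in limma) is pulled towards 0 by the pseudocount. HLA-DMA and HLA-DMB form the peptide editor of class II molecules. HLA-DMA rested on 161 reads in shNT and 112 in the shGPR81-labelled libraries (log2 fold change -0.60, adjusted p = 0.134 in limma), and HLA-DMB on 30 and 23.

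CD74, the invariant chain that escorts class II molecules to the endosome, did not follow HLA-DRA. It was at 173, 214 and 231 FPKM in shNT and at 212, 214 and 247 FPKM in the shGPR81-labelled libraries, groups that overlapped (log2 fold change 0.13, 95% interval -0.13 to 0.39, adjusted p = 0.615 in limma). The ratio of HLA-DRA to CD74 was 0.0627 ± 0.00885 in shNT and 0.0213 ± 0.000933 in the shGPR81-labelled libraries (SD, n = 3, exact two-sided permutation p = 0.1), and that of HLA-DRA to CIITA was 8.07 ± 1.46 and 3.13 ± 0.558 (SD, n = 3, exact two-sided permutation p = 0.1). In both ratios every shGPR81 library lay below every shNT library.

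Since class II molecules are also made by leukocytes, the leukocyte markers were set beside them. PTPRC, the pan-leukocyte antigen, was listed at 0 in the shNT libraries and averaged 0.0143 FPKM in the shGPR81-labelled libraries. The summed level of the 14 markers was 80.0 to 104 FPKM in shNT and 113 to 132 FPKM in the shGPR81-labelled libraries, most of it CD68, which non-leukocytic cells also make. CD14, a monocyte marker, had means of 3.38 and 1.49 FPKM (log2 fold change -1.10, adjusted p = 0.0562 in limma). The part of these markers in the class II result was not tested. Of 10 other class II genes and endosomal proteases, 7 were tested and 1 was called, the protease CTSS, which rose from 0.648 to 1.59 FPKM (log2 fold change 1.19, adjusted p = 0.0183 in limma).

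**Figure D3:**
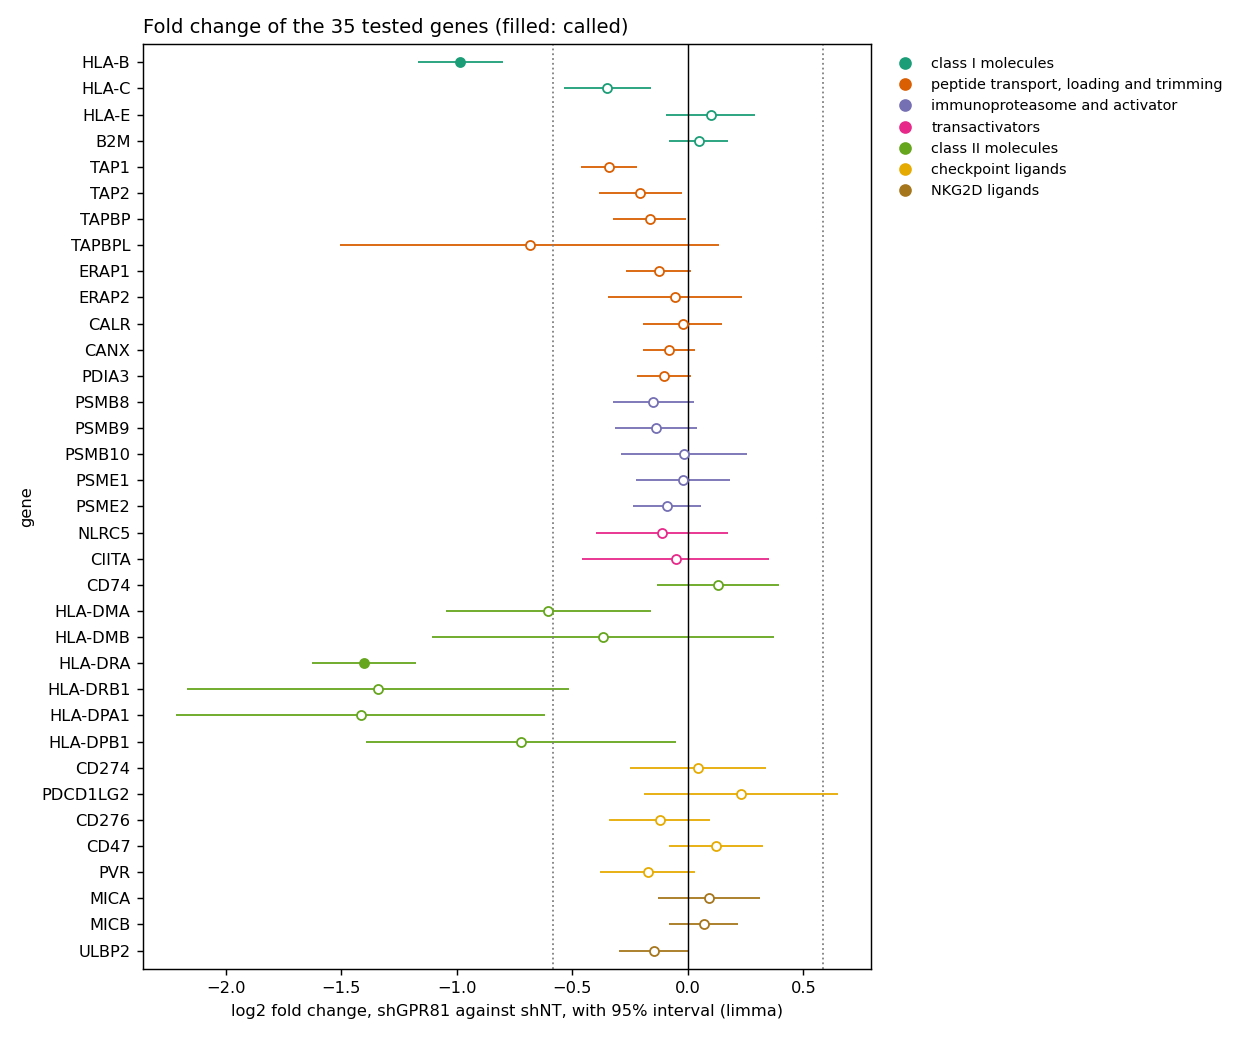
log2 fold change (shGPR81 against shNT) of the 35 tested genes with the 95% interval from limma, coloured by role, with filled points for called genes and dotted lines at a fold of 1.5. HLA-B at -0.99 and HLA-DRA at -1.40 are filled, and the intervals of the checkpoint ligands include 0.

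Of the 7 checkpoint ligands 5 were tested and limma called 0, against 1.59% of all genes called lower and 0.955% higher. Also 0 were lower and 0 higher at an unadjusted p under 0.05, against 9.43% and 10.1% of all genes. CD274, which encodes PD-L1, was at 2.85, 2.26 and 2.29 FPKM in shNT and at 2.55, 2.68 and 2.38 FPKM in the shGPR81-labelled libraries. The groups overlapped, and limma gave a log2 fold change of 0.04 with an SE of 0.125, an adjusted p of 0.893 and a 95% interval of -0.25 to 0.34. Its sign turned to -0.013 without shNT replicate 2 and to -0.003 without shNT replicate 3. PDCD1LG2, which encodes the second PD-1 ligand PD-L2 and lies beside CD274 on chromosome 9, was at 0.853, 1.06 and 0.688 FPKM against 0.980, 1.02 and 1.054 FPKM (log2 fold change 0.23, 95% interval -0.19 to 0.65, adjusted p = 0.563 in limma). The values stand for 80 and 99 reads, a ratio of 1.17 with a 95% counting interval of 0.867 to 1.598. Over the whole of chromosome 9, 381 of 558 tested genes had a log2 fold change above 0 (median 0.08).

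CD276 (B7-H3), an inhibitory ligand of the B7 family, was at 18.7, 22.7 and 23.9 FPKM in shNT and at 19.96, 20.3 and 19.4 FPKM in the shGPR81-labelled libraries (log2 fold change -0.12, 95% interval -0.34 to 0.10, adjusted p = 0.561 in limma). CD47, the signal that restrains phagocytosis through SIRPA, was at 12.2, 10.6 and 10.6 FPKM against 13.2, 11.4 and 11.8 FPKM (log2 fold change 0.12, 95% interval -0.08 to 0.33, adjusted p = 0.523 in limma). PVR, the ligand of TIGIT and DNAM-1, was at 29.5, 37.04 and 31.5 FPKM against 28.6, 27.8 and 30.1 FPKM (log2 fold change -0.17, 95% interval -0.38 to 0.03, adjusted p = 0.342 in limma). In all 3 genes the groups overlapped. By level, PVR and CD276 stood above CD47, and both PD-1 ligands stood below these. LGALS9, which encodes galectin-9, was at most at 0.146 FPKM.

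The interferon-gamma pathway feeds CD274 through kinases such as JAK2 and factors such as IRF1, and limma called 0 of its 14 genes. Among them 2 were lower and 0 higher at an unadjusted p under 0.05, against 9.43% and 10.1% of all genes. IRF1 was at 13.3 FPKM in shNT and 11.8 FPKM in the shGPR81-labelled libraries (adjusted p = 0.349 in limma), JAK2 at 0.984 and 1.16 FPKM (adjusted p = 0.668), and the phosphatase PTPN2, with the smallest p of the list, at 22.7 and 20.3 FPKM (adjusted p = 0.233). Of 9 regulators of PD-L1 protein, CSNK2A1, a catalytic subunit of casein kinase 2, fell from 90.4 to 58.1 FPKM (log2 fold change -0.64, adjusted p = 0.00167 in limma) and lies on chromosome 20. CMTM6, which keeps PD-L1 at the cell surface, was at 63.4 and 66.6 FPKM (adjusted p = 0.539 in limma). Of 26 tested interferon targets outside the list, 1 was called: IFITM1, a membrane protein that restricts virus entry, fell from 9.27 to 1.83 FPKM (log2 fold change -2.30, adjusted p = 0.0020 in limma), and reads it may share with its paralogs were not examined. GBP1 (log2 fold change -0.30, adjusted p = 0.0497) and OAS2 (0.40, adjusted p = 0.0256) passed the adjusted p in opposite directions and stayed under the fold. At an unadjusted p under 0.05, 9 of the 26 were lower and 2 higher, against 9.43% and 10.1% of all genes. Of 18 other tested costimulatory and inhibitory ligands, CD40, a receptor of the TNF family, fell from 22.1 to 14.5 FPKM (log2 fold change -0.61, adjusted p = 0.00219 in limma), and it also lies on chromosome 20. In the same list NT5E, the ectoenzyme CD73, with means of 121 and 160.1 FPKM (adjusted p = 0.00449 in limma), and CD58, an adhesion ligand of T cells, with 28.8 and 40.6 FPKM (adjusted p = 0.0279 in limma), were higher and stayed under the fold.

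The NKG2D ligands were not called by limma either. An unadjusted p under 0.05 was reached by 0 of 3, against 9.43% of all genes lower and 10.1% higher. MICA was at 29.1, 36.2 and 33.1 FPKM in shNT and at 35.01, 32.0 and 37.7 FPKM in the shGPR81-labelled libraries (log2 fold change 0.09, 95% interval -0.13 to 0.31, adjusted p = 0.675 in limma), and its groups overlapped. MICB had means of 28.6 and 30.01 FPKM. ULBP2, a GPI-anchored ligand, was at 14.0, 14.7 and 15.1 FPKM against 13.1, 13.9 and 12.6 FPKM, without overlap between the groups (log2 fold change -0.14, 95% interval -0.30 to 0.01, adjusted p = 0.278 in limma). Of its 75-base stretches 20.8% also occur in RAET1L or RAET1G. Among the 5 other NKG2D ligands, RAET1E rose from 4.27 to 6.86 FPKM (log2 fold change 0.67, adjusted p = 0.0124 in limma).

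Both called genes lie in the MHC. Between the first and the last gene of the list in that region, HLA-F and TAPBP, which span 3.59 Mb of chromosome 6 (29690552 to 33282061 in GRCh37), 112 genes were tested and HLA-B and HLA-DRA were the ones called lower. Of the 96 tested there that are not on the list, limma called 0 lower and 1 higher, ATP6V1G2, a proton pump subunit (0.635 and 1.38 FPKM, log2 fold change 1.004, adjusted p = 0.0125 in limma). By adjusted p alone, 2 of these 96 genes were lower and 2 higher. At an unadjusted p under 0.05, 8 of them were lower and 9 higher, against 9.43% and 10.1% of all genes. Their median log2 fold change was 0.03, next to 0.01 for all genes. MICA and MICB, which lie beside HLA-B, had log2 fold changes of 0.09 and 0.07.

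**Figure D4:**
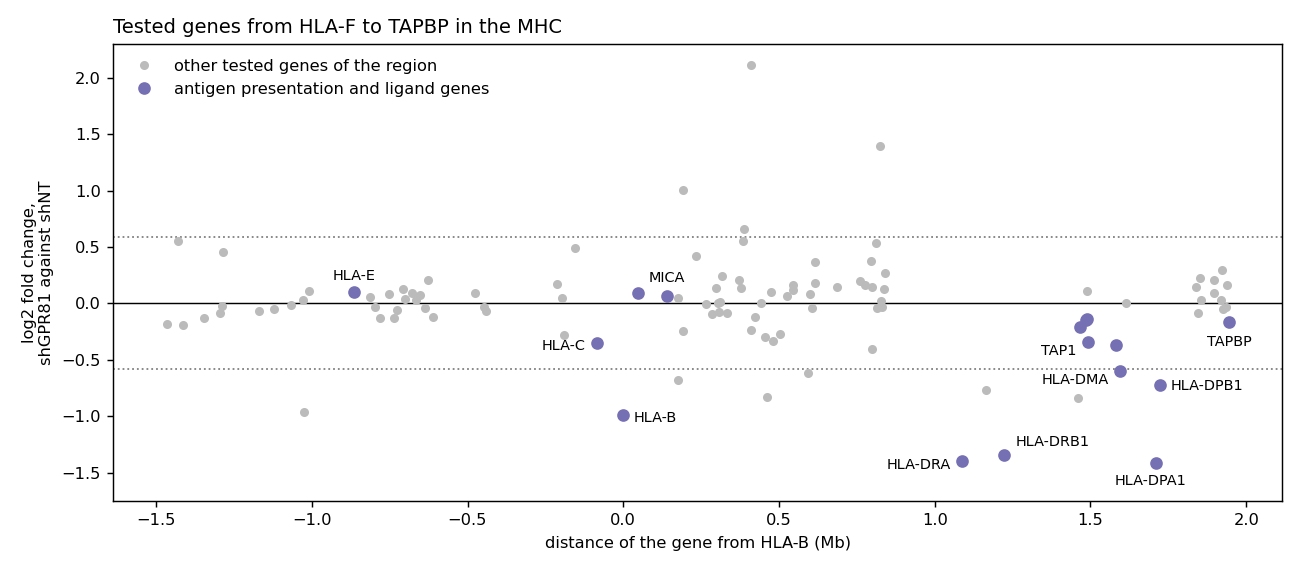
log2 fold change of the 112 tested genes between HLA-F and TAPBP against their distance from HLA-B in megabases, with the genes of the list in purple, the others in grey and dotted lines at a fold of 1.5. HLA-B at -0.99 and HLA-DRA at -1.40 lie below the lower line. HLA-C, beside HLA-B, is at -0.35 and MICA on its other side at 0.09, and HLA-DRB5, HLA-DRB1 and HLA-DOB, which follow HLA-DRA, are at -0.77, -1.34 and -0.84.

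**Figure D5:**
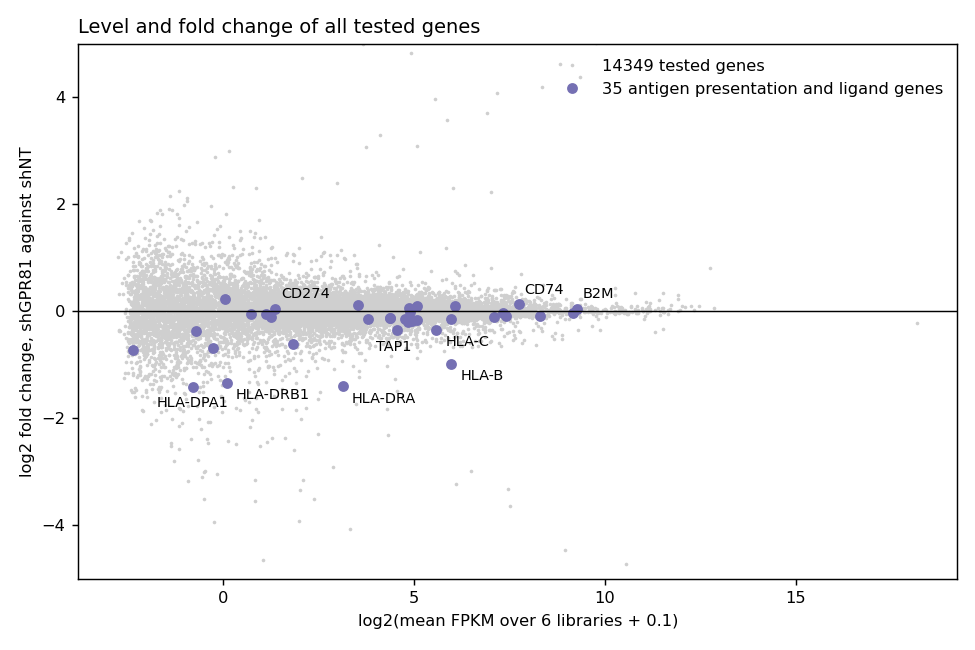
log2 fold change against log2(mean FPKM + 0.1) for 14349 tested genes (grey), with the 35 genes of the list in purple. The vertical axis ends at 5 in both directions and leaves out 7 genes. HLA-B and HLA-DRA lie below most genes of their level, and B2M, CD74 and CD274 lie near 0.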

How the data were processed

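MDA-MB-231 cells with a control hairpin (3 libraries) or a GPR81 hairpin (3 libraries) were sequenced after TruSeq stranded mRNA preparation. According to the paper, 75-base reads were aligned to hg19 with TopHat 2.0.13, Bowtie2 2.2.3 and SAMtools 0.1.19, while the labels name mm10. The symbols are human, so hg19 was assumed. The deposited values are FPKM, which the authors made with Cuffnorm 2.2.1 per the submitters' processing notes. The annotation is not given in the sources used here. The design had allowed for counts. As the file holds FPKM, log2(FPKM + 0.1) was compared with limma 3.58.1 (lmFit, eBayes with trend, R 4.3.3) over genes that reached 0.1 FPKM in 3 libraries or more, with Benjamini-Hochberg adjustment over all 14349 and without a block. The script was tested on simulated data.

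Reads were recovered for 5614 genes whose FPKM were whole multiples of a step per library, within a relative tolerance of 0.0001. Intervals of read ratios are exact binomial at 95% and, like the read numbers, cover counting error only. Relative depths were 1 to 1.07. Depth limits precision most for genes with few reads, such as HLA-DPB1. Replicates differed by more than counting noise (median chi-square 0.652 to 1.33 per gene, against 0.455). Nothing says that libraries came from separate cultures, so p-values measure the spread between these libraries.

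The genes, the lists and the marker sets were chosen with earlier results of these data known, and the motifs and the summary of the MHC region after these values were seen. Full values are given for genes past adjusted p 0.05 and for a set of ligands, class I genes and transactivators named in the design. HLA-DRB1, HLA-DPA1, CD74 and the ratios were described further after their values were seen. From the other lists, called genes are named or, where there were none, the gene with the smallest p, and IRF1, JAK2 and CMTM6 with PD-L1. Some genes under this rule are not reported here. GBP1, OAS2, NT5E, CD58, KRT19, CD14, PTPRC, HLA-DRB5, HLA-DOB and ATP6V1G2 were named after their values were seen. Loci and shared 75-base stretches come from GENCODE release 44 on GRCh37. Promoters come from RefSeq on GRCh38.p14, and 33 of 39 genes matched by symbol. Alternatives were a replicate block, other filters and pseudocounts, median centring, quantile normalization and leaving out each library.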

Additional observations from a re-analysis of the deposited data

How the results depend on the processing

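HLA-B and HLA-DRA stayed called under all 13 alternatives, with log2 fold changes of -1.06 to -0.93 and -1.49 to -1.25. HLA-C passed adjusted p 0.05 in 3 of 13 (0.019 to 0.213) without reaching the fold, and TAP1 in 9 of 13 (0.0073 to 0.0676). The count of genes of the list called lower was 2 or 3: HLA-DRB1 was added with the block and without shNT replicate 1, HLA-DPA1 without shGPR81 replicate 3, and HLA-DPB1 with no filter. At a pseudocount of 1 the log2 fold changes of the low genes HLA-DRB1, HLA-DPA1 and HLA-DPB1 were -0.68, -0.50 and -0.13. The calls over all genes moved more. Genes called lower numbered 120 with no filter, 142 at a pseudocount of 1 and 121 to 256 with a library left out, against 228. Genes called higher numbered 66, 75 and 65 to 152, against 137. Of the pathway lists, 3 genes were called lower (1 to 4 with a library left out, 1 without shGPR81 replicate 1) and 2 higher (0 with no filter, 1 at a pseudocount of 1, 0 to 2 with a library left out, 0 without shNT replicate 2 or shGPR81 replicate 1 or 2). Each count over all genes fell by more than 1.5 times without shNT replicate 2 (121 and 81), shGPR81 replicate 1 (133 and 65) or shGPR81 replicate 2 (135 and 66), and that of genes called higher without shGPR81 replicate 3 (85). The sign of CD274 turned without shNT replicate 2 (-0.013) or 3 (-0.003; -0.013 to 0.15 with a library left out), and that of CIITA without shNT replicate 3 (0.106; -0.175 to 0.106). The cause was not tested.

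Libraries with the same replicate number correlated at 0.12, 0.0223 and 0.00577 in their deviations across genes. By this measure shNT replicates 1 and 2 correlated best with the shGPR81 library of their own number, and shNT replicate 3 with shGPR81 replicate 2. Correlations this weak cannot decide whether the numbers pair the libraries. With the replicate block, 197 genes were called lower and 115 higher, and 3 genes of the list, the third being HLA-DRB1 (adjusted p = 0.0206 in limma).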
